A study of Pangasianodon hypophthalmus with 14 samples.

Results

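Whole tra catfish at 4 days post fertilization (dpf) were compared with whole fish at 2 dpf, across all genes of the deposited count table, and the genes that differed were described by function. The comparison used 4 of the 14 libraries of the series, 2 at each stage, and 18368 of the 21656 genes had enough counts to be tested. The tra catfish (*Pangasianodon hypophthalmus*) can take up oxygen from air through its swim bladder, and the study followed its early life by RNA sequencing of whole bodies at 7 stages between 2 and 11 dpf. No treatment or genotype separated the groups, only age. Each replicate was described as a pool of 4 embryos or larvae, but the methods also state that RNA of both pools was combined in equal amounts, so p-values here measure only the spread between these libraries. The fish were said to have hatched within 1 dpf, so both stages lay after hatching, and they are called by their age below rather than embryo and larva.

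In newly hatched fish, yolk supplies all food while the gut, exocrine pancreas, liver, eyes, jaws and muscle finish forming. A larva becomes able to feed when the pancreas secretes digestive enzymes, the gut lining carries peptidases and transporters on its brush border, and the eyes and trunk muscle can guide and drive the catching of prey. Patterning genes and proliferation belong to the building of these organs, while enzymes, receptors and structural proteins mark cells that have begun to work. In whole bodies, a change in a gene's level can come from more cells of a type or from more RNA per cell, and these cannot be told apart.

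The 2 dpf libraries held 5785774 and 6595758 gene counts and the 4 dpf libraries 4112131 and 6814725. Levels are given as CPM, counts scaled to a common depth with TMM factors, which set the middle of the genes' ratios between libraries to no change, and 3 counts were worth between 0.424 and 0.79 CPM. The libraries of 4 dpf differed from each other more than those of 2 dpf. Of 3170 genes with a mean of at least 50 CPM, a gap of over 2-fold within the pair was seen for 252 at 4 dpf and for 36 at 2 dpf. The scaling also bears on direction, since the median log2 fold change of all genes was -0.01 with TMM and -0.27 when only library totals were used. Lists given below with a median between 0 and 0.27, such as the proteasome and erythroid lists, had a median below 0 with library totals. A further limit concerns gene length. By the gene spans of another assembly of the species (fPanHyp1.pri), of which no values are given because its build may differ from the one used for counting, shorter genes tended to have higher fold changes. They also tended to be lower in replicate 1 than in replicate 2 of 4 dpf, and longer genes the reverse. The part of gene length in the results was not tested, and it may bear on any list or gene below. That includes lists with small shifts in many members and those in which the 4 dpf libraries stood apart. Examples are the ribosomal, oxidative phosphorylation, collagen and mitosis lists. All fold changes below are 4 over 2 dpf on the TMM scale. Counts of called genes and standard errors cover counting error and the spread of these libraries. As RNA of both pools was said to be combined, that spread may not include differences between fish or pools. Which steps before sequencing it includes was not tested. The exact counting intervals given for some genes cover counting error alone, and not the spread between libraries of a stage.

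A gene was called when its adjusted p was under 0.05 (quasi-likelihood test of edgeR, adjusted by Benjamini-Hochberg) and its log2 fold change (log2FC) was beyond 1 in size. By this rule 3190 genes were called, 17.4% of those tested, of which 2229 were higher (12.1%) and 961 lower (5.23%) at 4 dpf. With library totals 20.1% were called, 1596 higher (8.69%) and 2094 lower (11.4%), so the share of calls that were higher moved from 69.9% to 43.3%. The genes called higher reached larger changes. Beyond a log2FC of 2 there were 818 higher and 86 lower genes, and beyond 4 there were 130 higher and 5 lower. Of the genes called higher, 86 had at most 3 counts in both libraries of 2 dpf, and 9 of those called lower had at most 3 in both libraries of 4 dpf. Values of the 2 stages did not overlap for 2222 of the genes called higher and for all 961 called lower. The same held for 11493 of the 18368 genes tested, so non-overlap, where given below, adds no support to a call.

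**Figure D1:**
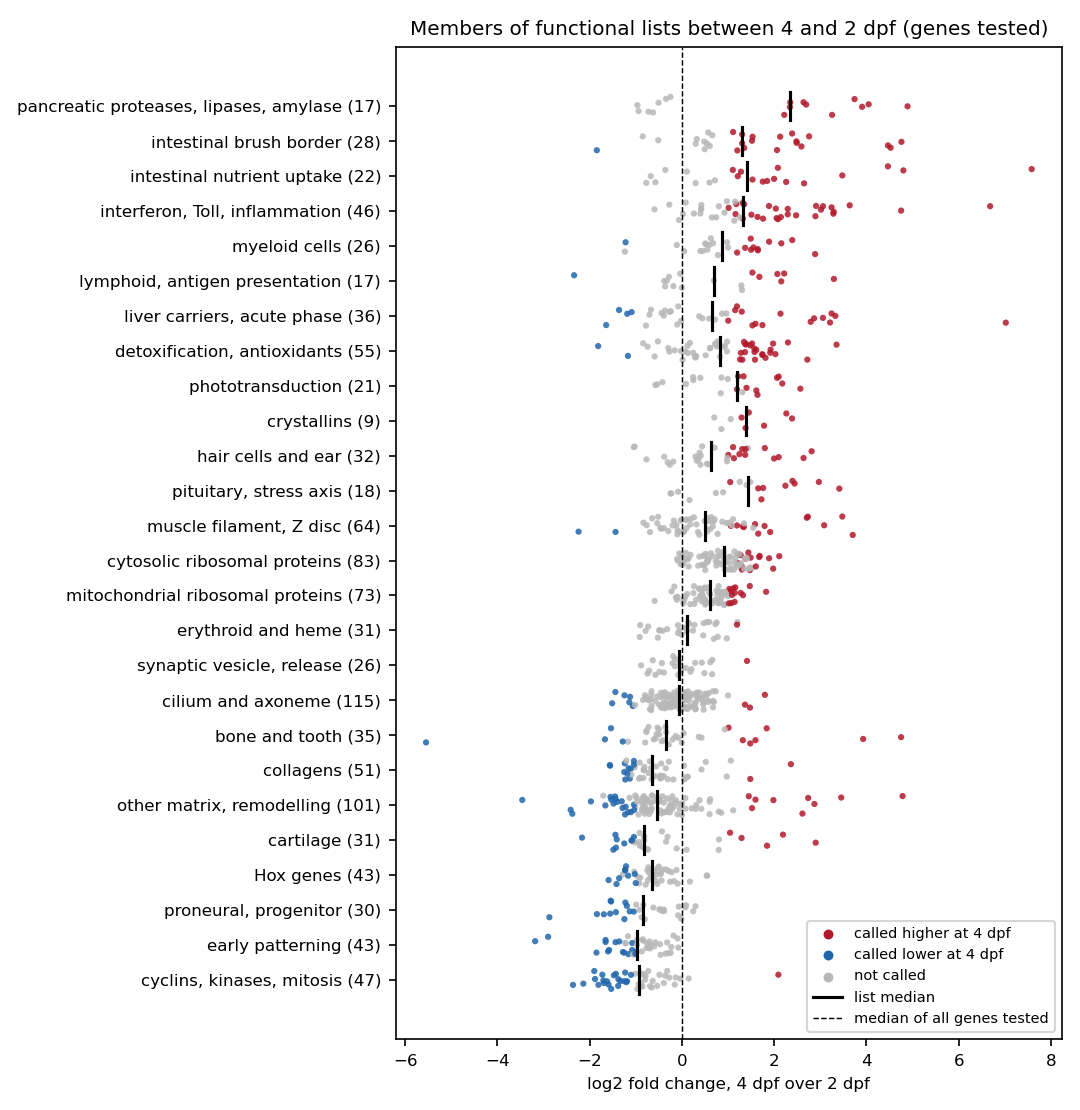
Log2 fold change of 4 over 2 dpf (horizontal axis) for each tested gene of 26 functional lists, with the number of genes tested in parentheses. Points are genes, coloured by whether they were called higher, called lower or not called, black bars are list medians and the dashed line is the median of all genes. Digestive, defence, eye and pituitary lists lie to the right, cell cycle, patterning and cartilage lists to the left, and erythroid, synaptic vesicle and cilium lists near the dashed line.

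The digestive system showed the highest list median of those examined. Of 17 pancreatic proteases, lipases and amylase genes tested, 10 were higher and 0 lower, with a median log2FC of 2.34 against -0.01 for all genes. The bile salt-stimulated lipase gene *cel* stood at 2.47 and 1.56 CPM at 2 dpf and at 47.7 and 71.8 CPM at 4 dpf. It rose by 4.89 on the log2 scale (SE 0.36, edgeR adjusted p = 3.57e-07). The amylase gene *amy2a*, whose product cuts starch, went from 7.57 and 3.53 CPM to 67.1 and 80.7 CPM (log2FC 3.74, SE 0.34, edgeR adjusted p = 2.66e-06). The elastase gene *cela1.6* went from 14.5 and 9.19 CPM to 189 and 166 CPM (log2FC 3.91, SE 0.33). In each of these genes both 4 dpf libraries lay several-fold above both 2 dpf libraries. The trypsin gene *prss1* rose less, by 2.35 (SE 0.32), from 3.55 and 3.53 CPM to 17.6 and 18.6 CPM. *pla2g1b*, the pancreatic phospholipase A2 gene, had 5 counts in all at 2 dpf, and its scaled counts at 4 dpf were 15.8 times as high (95% exact counting interval 6.4 to 50.5). Its 4 dpf libraries stood apart, at 10.07 and 2.4 CPM on the scale of all 14 libraries. The pancreas regulator *ptf1a* stood at 6.33 and 2.83 CPM and then at 2.9 and 3.42 CPM, so that the stages overlapped. Trypsins and elastases belong to families of near-identical copies, between which reads may have been divided.

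In the intestine, 17 of 28 brush border genes tested were higher and 1 lower (median log2FC 1.31), and 14 of 22 nutrient uptake genes were higher and 0 lower (median 1.404). The peptide transporter gene *slc15a1a* stood at 2.16 and 2.4 CPM at 2 dpf and at 63.7 and 64.8 CPM at 4 dpf (log2FC 4.80, SE 0.32, edgeR adjusted p = 1.52e-07). Its paralog *slc15a1b* was already at 44.3 and 32.4 CPM at 2 dpf and reached 168 and 138 CPM (log2FC 2.00, SE 0.29). The intestinal fatty acid binding protein gene *fabp2* went from 17.3 and 10.7 CPM to 165 and 147 CPM (log2FC 3.48, SE 0.32). The stages did not overlap in any of these genes. The 4 dpf libraries were close to each other in these transporters, but not in *fabp6*, which encodes the bile acid binding protein of the ileum. *fabp6* stood at 2.16 and 1.7 CPM and then at 649 and 98.3 CPM (log2FC 7.58, SE 0.78, edgeR adjusted p = 7.6e-06), and its log2FC was 5.66 without replicate 1 of 4 dpf. The bile acid transporter gene *slc10a2* rose by 4.47 (SE 0.59), from 0.154 and 0.848 CPM to 16.6 and 7.65 CPM.

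Enzymes of the brush border differed in how far they rose. The trehalase gene *treh* went from 0.463 and 1.13 CPM to 21.9 and 16.6 CPM (log2FC 4.52, SE 0.43). The meprin gene *mep1ba* had 6 counts at 2 dpf, and its scaled counts were 22 times as high at 4 dpf (95% exact counting interval 9.76 to 61.5). Lactase, *lct*, had a like ratio of 24.1 (10.7 to 67.1), but its 4 dpf libraries stood at 24.2 and 2.28 CPM, and without the former its log2FC went from 4.76 to 2.32. The villin gene *vil1*, a structural protein of microvilli, did not pass the test, with 84.5 and 69 CPM against 161 and 67.8 CPM. The one member called lower was *ggt1*, a gamma-glutamyltransferase gene, which fell by 1.85 (SE 0.52). The intestine list of identity and secretory cells did not rise as the brush border and nutrient uptake lists did. Of its 10 genes tested, 1 was higher and 2 were lower (median log2FC -0.47), and 2 of 10 had a log2FC above 0. Those lower were *gata4* and *gata5*, regulators of endoderm and heart, which fell by 1.19 (SE 0.32) and 1.67 (SE 0.42). The one higher was the membrane mucin gene *muc13b*, which rose by 2.85 (SE 0.29). Of 4 stomach genes tested 0 were called, and 3 of 4 had a log2FC below 0.

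A pair of chitinase genes, whose products cut the chitin of crustacean and insect shells, were among the 15 genes with the largest rise at a mean of at least 20 CPM. *chia.1* went from 9.11 and 10.32 CPM to 988 and 920 CPM (log2FC 6.61, SE 0.46, edgeR adjusted p = 1.92e-07). *chia.2* went from 23.9 and 22.2 CPM to 1645 and 1652 CPM (log2FC 6.16, SE 0.49, edgeR adjusted p = 8.87e-07). Both libraries of 4 dpf agreed closely, although reads may be shared between these copies.

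**Figure D2:**
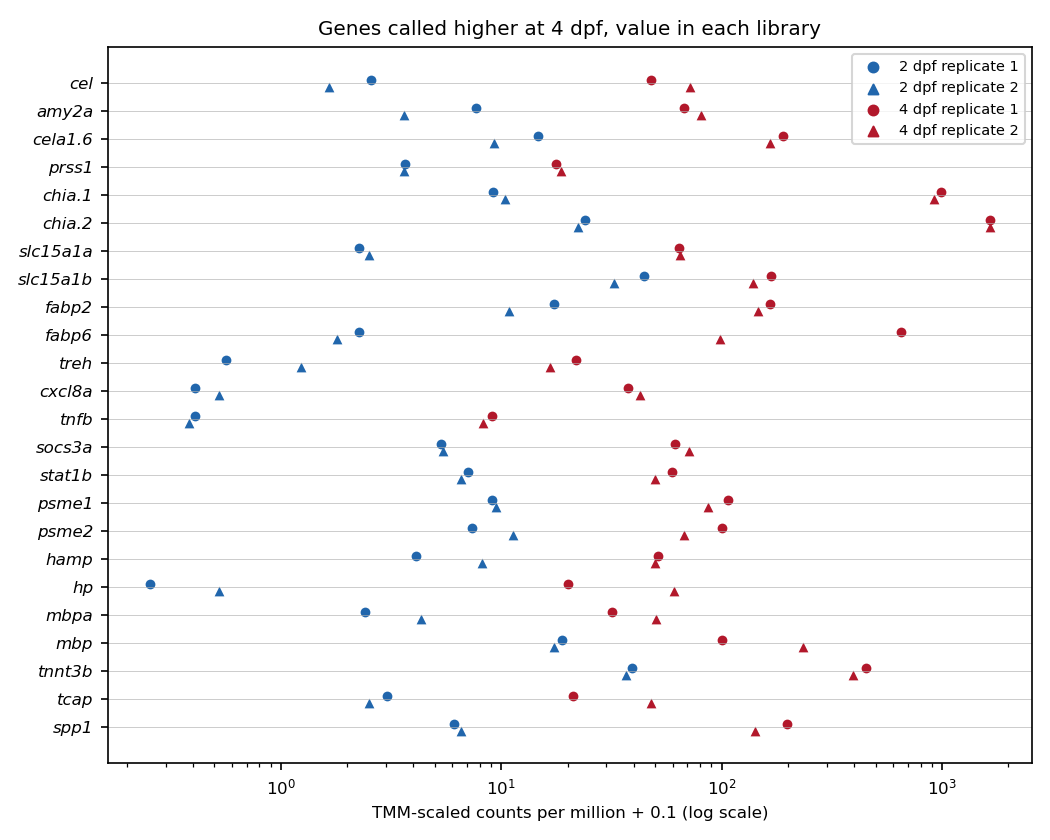
Level of 24 genes called higher at 4 dpf in each of the 4 libraries (horizontal axis, TMM-scaled CPM plus 0.1, log scale), with 2 dpf in blue, 4 dpf in red, circles for replicate 1 and triangles for replicate 2. The 4 dpf points lie to the right of the 2 dpf points in every gene shown, and *fabp6* has the widest gap between the 4 dpf libraries (649 and 98.3 CPM).

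Many genes of defence rose at 4 dpf. Of 46 genes of interferon, Toll and inflammation signalling tested, 27 were higher and 0 lower (58.7% higher, median log2FC 1.32). *cxcl8a*, the chemokine that draws neutrophils, had 5 counts at 2 dpf and stood at 37.4 and 42.5 CPM at 4 dpf. Its scaled counts were 110 times as high (95% exact counting interval 46.7 to 340.0). The tumour necrosis factor gene *tnfb* reached 8.95 and 8.13 CPM from 4 counts at 2 dpf, a ratio of 28.6 (10.8 to 107.0). *socs3a*, a feedback inhibitor of cytokine signalling, went from 5.25 and 5.37 CPM to 61.1 and 71.3 CPM (log2FC 3.64, SE 0.29, edgeR adjusted p = 8.4e-07). *stat1b*, a transcription factor of the interferon response, rose from 6.95 and 6.5 CPM to 59.5 and 49.6 CPM (log2FC 3.01, SE 0.28). The interferon regulator *irf7* rose by 1.16 (SE 0.33). Replicates were close in these genes and the stages did not overlap. The antiviral gene *rsad2* stayed under 0.6 CPM in every library and was not tested.

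Genes of antimicrobial peptides and some of antigen processing also rose. *hamp* (hepcidin) rose by 3.06 (SE 0.32), *leap2* by 3.24 (SE 0.49) and the peptidoglycan recognition gene *pglyrp2* by 3.29 (SE 0.47). Of 17 lymphoid and antigen presentation genes tested, 6 were higher and 1 lower (median log2FC 0.69). These included *b2m*, the light chain of class I molecules, which went from 21.3 and 31.5 CPM to 89.3 and 80.2 CPM (log2FC 1.68, SE 0.28), *tap1* (log2FC 2.22, SE 0.46) and *tapbp* (log2FC 2.07, SE 0.49), which load peptides, and the recombinase gene *rag1* (log2FC 2.15, SE 0.58). The B cell and brain factor *pax5* fell to 6 counts at 4 dpf, with scaled counts 5.26 times as high at 2 dpf (95% exact counting interval 2.23 to 15.1). Among 49 proteasome genes tested, 6 were higher (12.2%, against 12.1% of all genes) and 0 lower, with a median of 0.12. The largest rise was that of *psma7*, named as a subunit of the 20S core, from 1.7 and 1.27 CPM to 19.2 and 14.2 CPM (log2FC 3.465, SE 0.39). Those that rose also included the activator subunits *psme1*, from 8.96 and 9.33 CPM to 107 and 86.4 CPM (log2FC 3.40, SE 0.28), and *psme2* (log2FC 3.17, SE 0.32), and the immunoproteasome-like subunit *psmb12* (log2FC 3.29, SE 0.48). The core subunits *psma1* and *psmb1* and the regulatory subunit *psmd1* were not called, with log2FC of -0.21, 0.58 and -0.58.

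Of 26 myeloid cell genes tested, 11 were higher and 1 lower (median log2FC 0.88). The neutrophil peroxidase *mpx* went from 10.7 and 13.9 CPM to 24 and 44.4 CPM (log2FC 1.49, SE 0.32) and the macrophage perforin *mpeg1.1* from 4.02 and 7.78 CPM to 16.1 and 20.8 CPM (log2FC 1.64, SE 0.34). *cebpb*, a transcription factor of myeloid and liver cells, rose by 2.89 (SE 0.32) and the lysosomal cathepsin gene *ctss2.1* by 2.39 (SE 0.30). The leukocyte actin binding gene *lcp1* stood at 26.9 and 29.7 CPM and then at 29.8 and 51.1 CPM, which did not pass the test. The chemokine receptor gene *cxcr4* fell by 1.22 (SE 0.35).

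Genes of plasma proteins, known as products of the liver, were called in both directions, and which organ held these transcripts was not measured in whole bodies. Of 21 clotting genes 3 were higher (14.3%, against 12.1% of all genes) and 0 lower (median log2FC 0.31). The fibrinogen gene *fga* stood at 449 and 327 CPM and then at 314 and 493 CPM. Complement had 5 of 19 higher (26.3%) and 0 lower. It was led by *cfd* (factor D), which went from 6.49 and 6.93 CPM to 89.3 and 161 CPM (log2FC 4.22, SE 0.35, edgeR adjusted p = 1.17e-06). Among 36 carriers, inhibitors and acute phase genes 15 were higher and 4 lower. *hp*, the haemoglobin scavenger haptoglobin, had 4 counts at 2 dpf and 20 and 60.9 CPM at 4 dpf, a ratio of 153 (95% exact counting interval 59.5 to 565.0). The thyroid hormone carrier gene *ttr* rose from 10.19 and 15.7 CPM to 94.5 CPM in both libraries (log2FC 2.86, SE 0.29). The fetuin gene *fetub* fell from 1122 and 1291 CPM to 423 and 350 CPM (log2FC -1.64, SE 0.40), and *ahsg2*, of the same family, rose by 3.21 (SE 0.28).

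Among the 15 largest falls at a mean of at least 20 CPM were genes of lipid and phosphate handling, a grouping made after the values were seen. *smpd2a*, a sphingomyelinase gene, stood at 99.9 and 70.11 CPM at 2 dpf and had 0 and 6 counts at 4 dpf. Its scaled counts were 140 times as high at 2 dpf (95% exact counting interval 64 to 382.0). *phospho1*, a phosphatase that acts on phosphocholine and serves mineralization, went from 88 and 36.8 CPM to 6.06 and 3.09 CPM (log2FC -3.83, SE 0.44, edgeR adjusted p = 1.99e-05). The lysosomal phospholipase gene *pla2g15* went from 251 and 150.8 CPM to 14.8 and 19.9 CPM (log2FC -3.53, SE 0.35, edgeR adjusted p = 5.62e-06). The stages did not overlap in any of these genes. *apoa1a*, which encodes the main protein of high density lipoprotein, stood at 5164 and 1743 CPM and then at 277 and 369 CPM (log2FC -3.42, SE 0.59, edgeR adjusted p = 0.000806). Its 2 dpf libraries differed about 3-fold from each other, and both exceeded the 4 dpf libraries. Without replicate 1 of 2 dpf its log2FC was -2.43. *lcat*, the enzyme that esterifies cholesterol in lipoproteins, fell by 2.27 (SE 0.36) and *apoeb* by 1.47 (SE 0.50), while *apoea*, also an apolipoprotein E gene, rose by 1.62 (SE 0.44), a call lost without replicate 1 of 4 dpf (log2FC 0.91). Of 23 yolk and lipoprotein genes tested in all, 3 were higher and 3 lower, so the list as a whole had a median of -0.13. The hatching enzyme genes sought (*he1.1*, *he1.2*) were not matched by name, and no value is given for them.

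**Figure D3:**
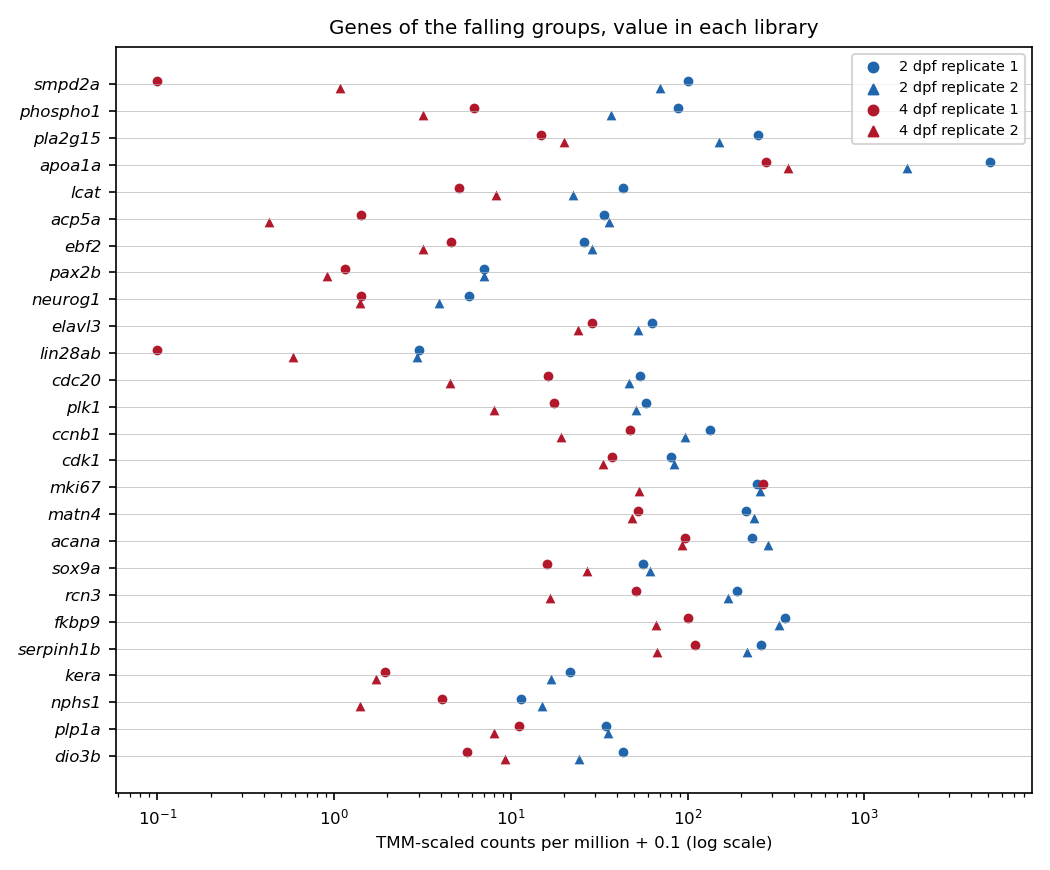
Level of 26 genes of the groups that fell, in each of the 4 libraries (horizontal axis, TMM-scaled CPM plus 0.1, log scale), with 2 dpf in blue, 4 dpf in red, circles for replicate 1 and triangles for replicate 2. The 4 dpf points lie to the left except for *mki67*, whose 4 dpf libraries stand at 267 and 53.2 CPM. In *cdc20*, *plk1* and *ccnb1* replicate 1 of 4 dpf is the higher of the pair.

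Many genes of mitosis fell, though to a different extent in each 4 dpf library. Of 47 cyclin, kinase and mitosis genes tested, 21 were lower and 1 higher (44.7% lower, median log2FC -0.94). *cdc20*, the activator of the anaphase-promoting complex, stood at 53.6 and 46.5 CPM and then at 16.1 and 4.39 CPM (log2FC -2.36, SE 0.41, edgeR adjusted p = 0.000811). The mitotic kinase gene *plk1* went from 58.1 and 50.6 CPM to 17.4 and 7.97 CPM (log2FC -2.14, SE 0.33) and the cyclin gene *ccnb1* from 133 and 96.8 CPM to 47.1 and 19.2 CPM (log2FC -1.81, SE 0.36). In all of these replicate 2 of 4 dpf was the lowest library. *mki67*, a common mark of dividing cells, was 246 and 258 CPM at 2 dpf but 267 and 53.2 CPM at 4 dpf and did not pass the test. Without replicate 1 of 4 dpf the median of the list was -1.78, and without replicate 2 it was -0.65, and *cdc20* moved likewise to -3.50 and -1.64. The part of this difference between libraries in the result was not tested. The member called higher was the cell cycle inhibitor *cdkn1a*, from 0.618 and 0.707 CPM to 2.63 and 3.09 CPM (log2FC 2.09, SE 0.54).

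DNA replication genes moved less. Of 38 origin and helicase genes, 3 were lower and 0 higher (7.89% lower, median -0.48), among them *mcm7* (log2FC -1.18, SE 0.29) and *mcm3* (log2FC -1.05, SE 0.27), subunits of the replicative helicase. *pcna*, the sliding clamp, overlapped between stages, with 241 and 300.0 CPM and then 219 and 365 CPM. The ribonucleotide reductase gene *rrm1* fell by 1.15 (SE 0.30) and *rrm2*, with a log2FC of -0.88 (SE 0.30), fell short of the size required for a call.

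Some transcription factors of early patterning fell as well. Of 43 early stem cell and neural patterning genes tested, 16 were lower and 0 higher (median -0.98), and none of the 43 had a log2FC above 0. *pax2b*, of the midbrain, ear and kidney, went from 6.95 and 6.93 CPM to 1.05 and 0.813 CPM (log2FC -2.90, SE 0.48), and *pax2* from 24.7 and 19.5 CPM to 5.79 and 7.97 CPM (log2FC -1.66, SE 0.31). The stem cell RNA binding gene *lin28ab* had 3 counts at 4 dpf, and its scaled counts were 9.54 times as high at 2 dpf (95% exact counting interval 3.03 to 48.3). Of 43 Hox genes, which set position along the body axis, 9 were lower and 0 higher (median -0.66), led by *hoxb9* (log2FC -1.59, SE 0.38). Of 19 segmentation and tailbud genes 5 were lower, led by *sall4* (log2FC -1.87, SE 0.36). The segmentation genes *msgn1* and *tbx6* were at most at 0.263 CPM in any library.

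In the nervous system, some genes of new neurons fell. Of 30 proneural and progenitor genes tested, 12 were lower and 0 higher (median -0.86). *ebf2*, a factor of young neurons, went from 25.8 and 28.6 CPM to 4.48 and 3.09 CPM (log2FC -2.88, SE 0.33, edgeR adjusted p = 2.1e-05). *neurog1*, which commits progenitors to a neuronal fate, went from 5.71 and 3.82 CPM to 1.32 and 1.3 CPM (log2FC -1.84, SE 0.48), and *elavl3*, an RNA binding protein of neurons, from 62.4 and 52.4 CPM to 28.7 and 23.8 CPM (log2FC -1.14, SE 0.26). The Notch ligand genes *dla* and *dlb* fell by 1.05 (SE 0.27) and 1.69 (SE 0.29). Synaptic vesicle genes were near level, with 1 of 26 higher and 0 lower (median -0.06). *snap25*, of the vesicle fusion machinery, stood at 79.2 and 67.7 CPM and then at 82.4 and 115 CPM. Among 50 transmitter enzymes, carriers and receptors 4 were higher and 2 lower (8.0% and 4.0%, against 12.1% and 5.23% of all genes, median -0.12). The vesicular glutamate transporter *slc17a7a* (log2FC 1.93, SE 0.50) was among those higher.

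Myelin and glia genes split within the list, 6 of 21 higher and 3 lower (median log2FC 0.02). *mbp* and *mbpa*, copies of the myelin basic protein gene, rose from 18.8 and 17.3 CPM to 100.3 and 234 CPM (log2FC 3.21, SE 0.38) and from 2.32 and 4.24 CPM to 31.9 and 50.4 CPM (log2FC 3.64, SE 0.36). *mpz*, a membrane protein that compacts myelin, rose by 2.98 (SE 0.43). *plp1a*, a proteolipid gene, was called lower, from 34.4 and 35.5 CPM to 11.1 and 7.97 CPM (log2FC -1.90, SE 0.29). The other members called lower were the neural crest and oligodendrocyte factor *sox10* (log2FC -1.42, SE 0.36) and *apoeb*. The stages did not overlap in any of these.

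Some genes of the senses rose and 0 of those in the phototransduction, opsin, crystallin and ear lists were called lower. Of 21 phototransduction genes tested, 10 were higher (median log2FC 1.19, 7 higher with library totals). Of 21 outer segment and visual cycle genes 5 were higher (23.8%, against 12.1% of all genes) and 0 lower. With library totals 1 was higher and 1 lower, against 8.69% and 11.4% of all genes. The opsins called higher were 2 of 6, *rgra* and *opn4.1*. The cone transducin gene *gnat2* went from 8.49 and 8.48 CPM to 22.1 and 30.4 CPM (log2FC 1.64, SE 0.29) and the rod transducin gene *gnat1* from 1.39 and 1.7 CPM to 5 and 8.79 CPM (log2FC 2.18, SE 0.45). *rlbp1*, which carries retinoid in the visual cycle, rose by 2.82 (SE 0.41). The gene named *rho* did not pass the test, at 4.02 and 4.1 CPM and then 2.11 and 2.28 CPM. The melanopsin gene *opn4.1* rose by 2.36 (SE 0.39). In the lens, 6 of 9 crystallin genes were higher (4 with library totals) and 0 lower, with *crygn* highest at a log2FC of 2.39 (SE 0.34). Crystallin copies may share reads. Of 11 lens membrane, filament and enzyme genes, 3 were higher and 0 lower (median 0.24). With library totals their median was -0.03, with 3 higher and 2 lower. Of 32 hair cell and ear genes, 12 were higher (7 with library totals) and 0 lower, among them the otolith gene *stm*, from 54.8 and 64.5 CPM to 267 and 243 CPM (log2FC 2.097, SE 0.30), and the tectorial membrane gene *tecta* (log2FC 1.11, SE 0.33), which was not called without replicate 2 of 4 dpf (log2FC 0.40).

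Some hormone genes rose, with a wide gap between the 4 dpf libraries in those of the pituitary. Of 18 pituitary, hypothalamus and stress axis genes tested, 9 were higher and 0 lower (median log2FC 1.44). Growth hormone, *gh1*, stood at 6.33 and 4.1 CPM and then at 14.5 and 65.6 CPM (log2FC 2.97, SE 0.51, edgeR adjusted p = 0.000805). The thyrotropin gene *tshba* went from 1.08 and 0.99 CPM to 8.16 and 13.8 CPM (log2FC 3.41, SE 0.45) and *pomc*, the precursor of corticotropin and melanocyte hormones, from 3.09 and 1.84 CPM to 5.27 and 20.5 CPM (log2FC 2.44, SE 0.52). Replicate 2 of 4 dpf was the higher in each. The list's median was 0.92 with replicate 1 alone and 1.88 with replicate 2 alone at 4 dpf. Without replicate 2 the log2FC of *gh1* was 1.48 and that of *pomc* 1.1, which was no longer called. *fkbp5*, a target of the glucocorticoid receptor, rose by 1.76 (SE 0.33). *dio3b*, the deiodinase that inactivates thyroid hormone, fell from 43.1 and 24.3 CPM to 5.53 and 9.11 CPM (log2FC -2.16, SE 0.35). In the thyroid list 1 of 10 genes was higher and 2 were lower. The insulin gene *ins* overlapped between stages, and 11 of 34 islet and gut hormone genes were higher and 2 lower (32.4% and 5.88%).

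Lists of the skeleton and the matrix had medians below 0, with members called in both directions. Of 31 cartilage genes, 9 were lower and 5 higher (median -0.82). *matn4*, a matrilin of cartilage matrix, went from 214 and 237 CPM to 52.1 and 48.3 CPM (log2FC -2.17, SE 0.30, edgeR adjusted p = 0.000106). The aggrecan gene *acana* went from 232 and 283 CPM to 96.6 and 92.9 CPM (log2FC -1.44, SE 0.30) and *sox9a*, the master factor of cartilage, from 56.1 and 60.9 CPM to 15.8 and 27 CPM (log2FC -1.43, SE 0.29). *ucmaa* and *ucmab*, which encode a protein of cartilage near sites of calcification, rose by 2.90 (SE 0.49) and 2.19 (SE 0.32). The stages did not overlap in these genes. Among 35 bone and tooth genes 7 were higher and 4 lower, with a median of -0.36 and 11 of 35 above 0. *spp1* (osteopontin) rose from 6.02 and 6.5 CPM to 198 and 141 CPM (log2FC 4.75, SE 0.33, edgeR adjusted p = 2.03e-07), *bglapl*, an osteocalcin-like gene, by 3.93 (SE 0.44) and *col10a1a* by 1.48 (SE 0.38). *acp5a*, the acid phosphatase of osteoclasts, fell from 33.4 and 35.8 CPM to 1.32 and 0.325 CPM (log2FC -5.55, SE 0.45), while its paralog *acp5b* rose by 1.84 (SE 0.38).

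Of 51 collagen genes tested, 11 were lower and 2 higher (21.6% lower, median -0.66). The main fibrillar genes did not pass the test. *col1a1a* was at 2690 and 3767 CPM and then at 2685 and 1225 CPM, and *col2a1a* at 4927 and 5546 CPM and then at 2626 and 2538 CPM. The skin hemidesmosome collagen *col17a1b* rose by 2.36 (SE 0.33). Of 101 other matrix and remodelling genes, 19 were lower and 9 higher (median -0.55). The lower calls numbered 41 with library totals, 37 without replicate 1 of 4 dpf and 15 without replicate 2, and those of the collagens 19, 22 and 5. The corneal proteoglycan gene *kera* fell from 21.5 and 16.8 CPM to 1.84 and 1.63 CPM (log2FC -3.46, SE 0.38) and the basement membrane gene *nid2* by 1.98 (SE 0.30), while the elastin gene *elna* rose by 2.61 (SE 0.42). *rcn3*, a calcium binding protein of the endoplasmic reticulum, was among the 15 largest falls, from 191 and 170 CPM to 51.1 and 16.6 CPM (log2FC -2.44, SE 0.41), and the collagen chaperone *serpinh1b* fell by 1.44 (SE 0.33). Further genes of that compartment, chosen after their values were seen, fell too. They were the prolyl isomerase genes *fkbp9* (log2FC -2.03) and *fkbp10b* (log2FC -1.95), the collagen prolyl hydroxylase gene *p3h1* (log2FC -1.93) and *ckap4*, a membrane protein of its sheets (log2FC -1.95). The median of the collagens was -1.04 with replicate 2 alone and -0.34 with replicate 1 alone at 4 dpf.

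**Figure D4:**
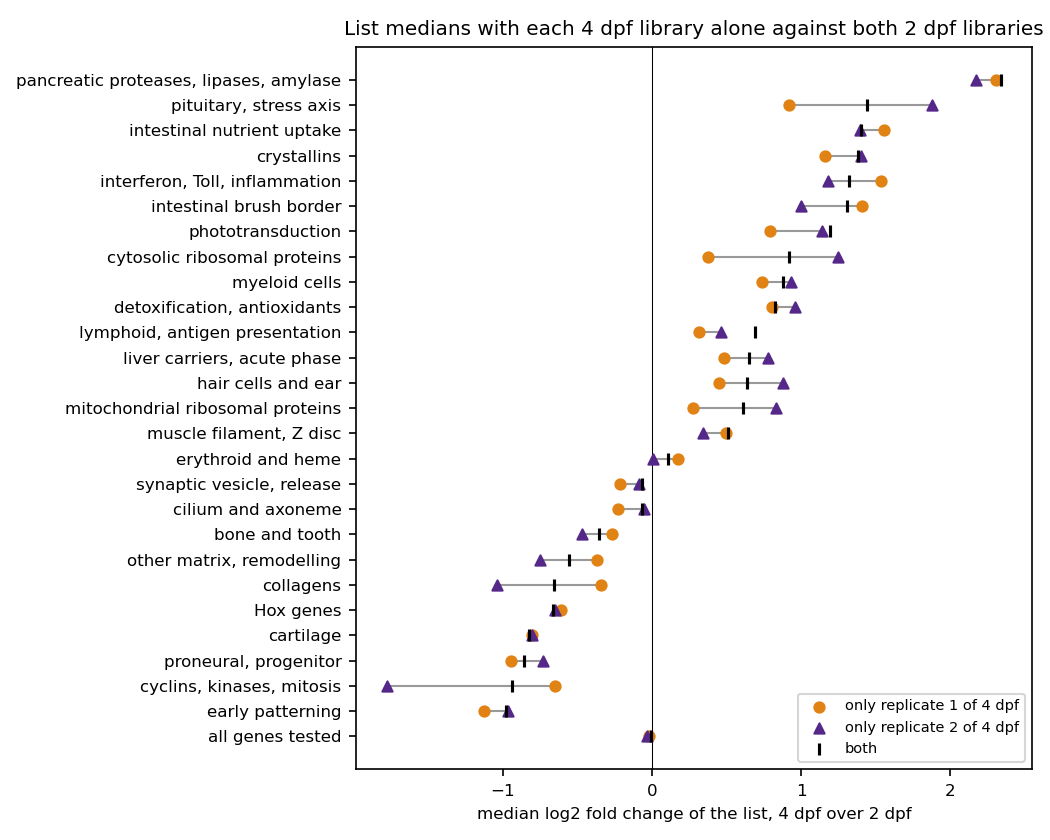
Median log2 fold change of each list (horizontal axis) against both 2 dpf libraries, with only replicate 1 of 4 dpf (circles), only replicate 2 (triangles) and both (bars). The mitosis list spans -1.78 to -0.65, the collagens -1.04 to -0.34 and the cytosolic ribosomal proteins 0.38 to 1.25, whereas the Hox and cartilage medians hardly move.

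Muscle genes changed unevenly. Of 64 filament and Z disc genes tested, 13 were higher and 2 lower (20.3% and 3.12%, against 12.1% and 5.23% of all genes, median log2FC 0.51). The fast troponin gene *tnnt3b* went from 39.1 and 36.8 CPM to 450.2 and 394 CPM (log2FC 3.48, SE 0.34, edgeR adjusted p = 5.56e-06). *tcap*, the titin cap of the Z disc, went from 2.93 and 2.4 CPM to 21.1 and 47.8 CPM (log2FC 3.70, SE 0.41), and the calcium buffer *pvalb4* from 42.5 and 65.6 CPM to 348 and 341 CPM (log2FC 2.67, SE 0.34). Myoglobin, *mb*, rose by 2.36 (SE 0.31). The skeletal actin gene *acta1a* fell from 404 and 288 CPM to 101 and 46 CPM (log2FC -2.24, SE 0.39), whereas its paralog *acta1b* was not called at 2887 and 2066 CPM and then 3500 and 4092 CPM. The titin genes *ttn.1* and *ttn.2* were among the most abundant in both stages and differed within each pair as much as between stages, with *ttn.1* at 12120 and 23700 CPM and then at 36690 and 15430 CPM. Of 20 myogenic regulators 1 was higher and 2 were lower (5.0% and 10.0%), with a median of -0.60 and 3 of 20 above 0. The regulator *myod1* stayed between 6.32 and 7.35 CPM. In the heart list 2 of 26 were higher and 4 lower (7.69% and 15.4%, against 12.1% and 5.23% of all genes). Of those lower, *hand2*, a factor of the early heart, fell by 1.55 (SE 0.35).

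Few genes of the erythroid, endothelial and ion transporter lists were called. Of 31 erythroid and heme genes 1 was higher and 0 lower (median 0.11), and *alas2*, the enzyme that begins heme synthesis in red cells, stood at 9.88 and 8.62 CPM and then at 13.4 and 6.83 CPM. Endothelial genes had 3 of 45 higher and 3 lower (6.67% each, against 12.1% and 5.23% of all genes). The vessel diaphragm gene *plvapa* rose by 2.39 (SE 0.32) and the guidance receptor gene *robo4* fell by 1.61 (SE 0.30). Of 28 oxygen sensing genes 6 were higher (21.4%, against 12.1% of all genes) and 0 lower. The rises were led by the growth factor binding genes *igfbp1a* (log2FC 2.36, SE 0.29) and *igfbp1b* (log2FC 2.56, SE 0.39). *hif1ab*, the oxygen-regulated transcription factor, stayed between 112 and 137 CPM. Of 17 ion transporters 2 were higher (11.8%, near the share of all genes), among them the sodium and chloride cotransporter *slc12a10.1* (log2FC 1.87, SE 0.27). The surfactant protein gene *sftpba*, of interest for the swim bladder, stood at 0.463 and 0.99 CPM and then at 7.64 and 0.163 CPM, and was not tested. In the kidney list the podocyte gene *nphs1* (nephrin) fell from 11.3 and 14.8 CPM to 3.95 and 1.3 CPM (log2FC -2.43, SE 0.44), and the phosphate transporter gene *slc34a2a* rose from 3 counts at 2 dpf, a ratio of 37.2 (95% exact counting interval 12.3 to 184.0). In the skin list of junctions, mucus and outer layer, 11 of 53 genes were higher (20.8%, against 12.1% of all genes) and 2 lower. Of these *itln3*, an intelectin secreted with mucus, rose from 1.54 and 0.565 CPM to 19.5 and 76.1 CPM (log2FC 5.52, SE 0.61).

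Genes for making proteins and energy shifted by small amounts in many members. Cytosolic ribosomal proteins had a median log2FC of 0.92, with 78 of 83 above 0 and 14 called higher (16.9%, against 12.1% of all genes). Mitochondrial ribosomal proteins had a median of 0.61 with 13 of 73 higher (17.8%), and 21 of 78 ribosome biogenesis genes were higher (26.9%, median 0.43), led by *pno1*, a factor of the small subunit, from 93.9 and 89.3 CPM to 319 and 422 CPM (log2FC 2.02, SE 0.33). The ribosomal lists were lower in replicate 1 than in replicate 2 of 4 dpf. With replicate 1 alone the median of the cytosolic list was 0.38, and with library totals it was 0.65. Its 14 calls became 7 with library totals, 46 without replicate 1 of 4 dpf and 19 without replicate 2. The mitochondrial list had 4 higher with library totals, against 8.69% of all genes, and 28 without replicate 1, and the biogenesis list had 12 higher with library totals. Complex I had a median of 0.34 with 6 of 38 higher (15.8%), and this median was -0.09 with replicate 1 alone and 0.07 with library totals, under which 0 were called higher. The part that gene length and the difference between the 4 dpf libraries had in these lists was not tested. The complex IV assembly gene *pet100* rose by 1.53 (SE 0.29).

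Of 55 detoxification and antioxidant genes 23 were higher and 2 lower (41.8% higher, median 0.83). *gpx3*, a secreted glutathione peroxidase, rose from 6.33 and 4.95 CPM to 29.8 and 84.3 CPM (log2FC 3.35, SE 0.42), *gpx1a* by 1.98 (SE 0.30) and the superoxide dismutase gene *sod1* from 34 and 30.3 CPM to 174 and 142 CPM (log2FC 2.297, SE 0.29). Catalase, *cat*, did not pass the test (log2FC -0.30, SE 0.25). Of 38 heat shock and chaperonin genes 4 were higher (10.5%, against 12.1% of all genes) and 1 lower. The inducible *hsp70.3* went from 10.8 and 4.24 CPM to 44.2 and 79.1 CPM (log2FC 3.05, SE 0.39). Of 32 clock and light response genes 4 were higher (12.5%, against 12.1% of all genes). These included *per2*, which responds to light in zebrafish, from 14.2 and 16.1 CPM to 52.4 and 66.5 CPM (log2FC 1.97, SE 0.27). *per1b* had a log2FC of 0.00 (SE 0.32). The sterol synthesis gene *sqle*, squalene epoxidase, was higher in replicate 1 of 4 dpf than in replicate 2. It stood at 4.63 and 2.54 CPM and then at 29 and 6.18 CPM (log2FC 2.24, SE 0.55). The liver fatty acid binding gene *fabp10a* likewise stood at 54.2 and 4.56 CPM at 4 dpf, from 2.47 and 3.53 CPM (log2FC 3.23, SE 0.74). Without replicate 1 of 4 dpf neither the call of *sqle* (log2FC 0.79) nor that of *fabp10a* (log2FC 0.59) held.

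Many of the largest rises lay in genes that carry no symbol. Of 2659 tested genes known only by a LOC identifier, 741 were called higher and 107 lower. Of all 18368 genes tested, 2229 (12.1%) were called higher and 961 (5.23%) lower. Genes without a symbol made up 7 of the 15 largest rises at a mean of at least 20 CPM, and 3 of the 15 largest falls. LOC113545096 had 0 and 2 counts at 2 dpf and stood at 77.4 and 193 CPM at 4 dpf, with scaled counts 1010 times as high (95% exact counting interval 279 to 8340). LOC113527991 was among the 10 most abundant genes of 4 dpf, at 29340 and 31810 CPM after 3310 and 5489 CPM (log2FC 2.80, SE 0.79, edgeR adjusted p = 0.02).

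The later stages show which levels held. Among the 2229 genes called higher, 66.4% had their highest mean over the 7 stages at 4 dpf, as did 27.3% of all genes tested, and the choice of genes called higher raises this share. In the list of pancreatic enzymes 1 of the 10 genes called higher had its highest mean at 4 dpf, and in the brush border list 0 of 17. *cel*, at a mean of 54.8 CPM at 4 dpf on the scale of all 14 libraries, reached 417 CPM at 6 dpf and stood at 310 CPM at 11 dpf. Myelin basic protein *mbpa* went on from 37.7 CPM to 62.8 CPM at 6 dpf and 113.8 CPM at 11 dpf. Of the 27 defence genes called higher, 20 had their highest mean at 4 dpf (74.1%, against 66.4% of all genes called higher). *cxcl8a* fell back from 36.6 CPM at 4 dpf to 0.259 CPM at 6 dpf and stayed at or below that level, and *tnfb* went from 7.82 CPM to 0.309 CPM. All 14 cytosolic and all 13 mitochondrial ribosomal protein genes called higher had their highest mean at 4 dpf. Many rises of the senses and the pituitary also reversed. In the ear list 10 of 12 genes called higher had lost over 50% of their log2 rise by 6 dpf. So had 7 of 10 in phototransduction, 2 of 2 opsins and 3 of 5 in the outer segment and visual cycle list. In the pituitary list 5 of 9 had, against 945 of all 2229, and of the crystallins 0 of 6.

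Mitosis genes called lower dipped at 4 dpf, rose at 6 dpf and were low again by 11 dpf. Of the 21 called lower, 16 had their lowest mean of the 7 stages at 4 dpf (76.2%, against 66.9% of all genes called lower), and 20 had regained over 50% of the log2 difference from 2 dpf by 6 dpf, as had 380 of all 961 genes called lower. *cdc20* stood at 46.1 CPM at 2 dpf, 9.34 CPM at 4 dpf and 38.7 CPM at 6 dpf. The median log2 difference of these 21 genes from 2 dpf was -1.52 at 4 dpf, -0.33 at 6 dpf and -1.35 at 11 dpf. Cartilage genes dipped too. Of the 9 called lower, 8 had their lowest mean at 4 dpf and 7 had regained over 50% by 6 dpf. Their median difference from 2 dpf was -0.28 at 11 dpf. Of the 11 collagens called lower 3 had regained as much by 6 dpf, and their median difference was -0.85 then and -0.08 at 11 dpf. Of the 19 other matrix genes called lower 8 had. Hox genes did not return in this way, as 0 of the 9 called lower had regained that much. *ebf2* and *apoa1a* also stayed low, at 5.95 and 319 CPM at 6 dpf. These levels include the libraries of 4 dpf that chose the genes, so they are given as a description without a test.

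**Figure D5:**
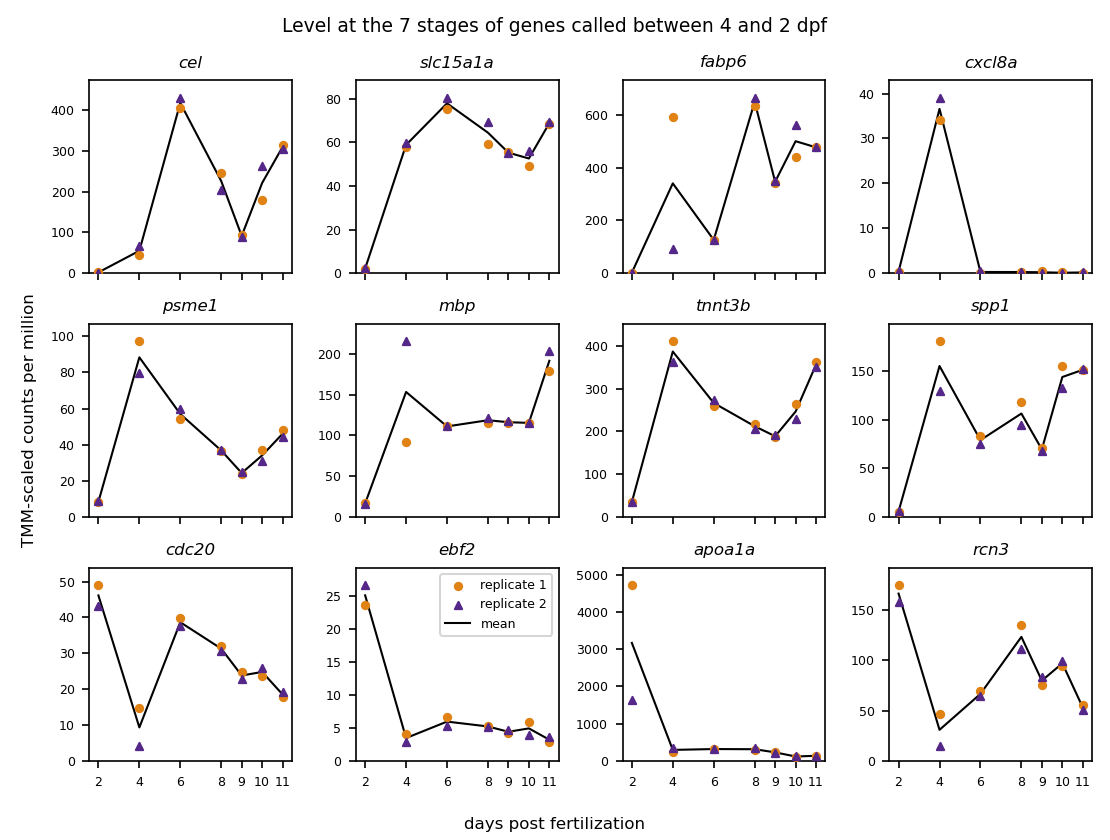
Level of 12 genes called between 4 and 2 dpf at the 7 stages (vertical axes, TMM-scaled CPM on the scale of all 14 libraries, horizontal axes, days post fertilization), with both libraries as points and their mean as a line. *cel* rises further at 6 dpf, *cxcl8a* is high at 4 dpf alone, *cdc20* and *rcn3* dip at 4 dpf, and *ebf2* and *apoa1a* stay low after 2 dpf.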

How the data were processed

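Per the labels, RNA of whole fry was depleted of ribosomal RNA and made into libraries with a kit that, as named, does not mark strand. The authors used Trimmomatic 0.36 for trimming, STAR 2.7.0 for alignment and HTSeq for counting; mode and strand setting are not given in the sources used here, so overlapping and antisense genes cannot be told apart. The deposited table holds these raw counts, as whole numbers, with 0 unused sample columns. Of 11307 genes under a LOC identifier, 10538 were found in RefSeq's table for fPanHyp1.pri, another assembly, used for names and for the remark on gene spans, and 6917 had a symbol there.

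The 4 libraries of 2 and 4 dpf were fitted with edgeR 4.0.16 in R 4.3.3 (filterByExpr, TMM, quasi-likelihood test, Benjamini-Hochberg adjustment over the 18368 genes tested). The standard error (SE) of a fold change was taken as its log2 size over the root of the F statistic. The common dispersion was 0.0427, against 0.0141 in a fit of all 14 libraries. Where a stage had 6 counts or fewer, the ratio of scaled counts is given with an exact 95% binomial interval. This interval pools the libraries of each stage, so it leaves out the gap between them, which was wide in *hp*, *lct* and *pla2g1b* at 4 dpf. On simulated data for this comparison (18368 genes), 100 of 100 genes changed by a log2 of 3 and 81 of 100 changed by 1.5 were recovered, with 11 false calls. The simulation gave every gene the common dispersion in both stages and changed only genes above a minimum level. It left out the gap between the 4 dpf libraries, so these figures are not error rates of the real comparison.

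The functional lists hold 2288 genes, of which 2045 were tested. Stages, lists and members were chosen with earlier results of these data known. Genes were named as key genes of a list, as the 4 highest and 4 lowest called in a list, or as the 15 highest and 15 lowest called over all genes with at least 20 CPM and the 10 most abundant of each stage, with other names said to be chosen later. Names that only matched a list's pattern, such as kinases beside ribosomal proteins, were removed. Alternatives were all 14 libraries, DESeq2 1.42.0 on 4 or 14 libraries, unadjusted p, library totals, RLE scaling, at least 10 counts in each library, no filter, a replicate block, and leaving out each library. Sequences were not used here, and values of some single genes are not reported here. Steps in Python 3.11.15 used pandas 2.3.3 and numpy 2.4.6, with figures from matplotlib 3.10.9.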

Additional observations from a re-analysis of the deposited data

How the results depend on the processing

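The count of 3190 genes called kept within 1.5 times under all 14 libraries in 1 fit (3815), DESeq2 on 4 (2420) and on 14 libraries (3587), unadjusted p (3631), RLE scaling (3200), library totals (3690), no filter (3362) and at least 10 counts in each library (2565). The fits of 14 libraries share a spread with later stages (common dispersion in edgeR 0.0141, against 0.0427 with 4 libraries). That spread is likely too small for 2 and 4 dpf, so these 14-library counts add no support to the calls. Library totals moved the genes called lower from 961 to 2094, 633 calls being lost. Leaving out 1 library gave between 1737 and 3830 calls, 1328 to 2433 higher and 409 to 1397 lower, lowest without replicate 1 of 2 dpf (1328 higher, 409 lower), followed by replicate 2 of 2 dpf (1392 and 516). Where a stage is left with 1 library, that library is assumed to vary like the other stage. With the replicate number as a block, 1422 genes were called (1195 higher, 227 lower), of which 1338 were among the 3190. Deviations from the stage means of same-numbered libraries had a correlation of -0.18 over genes. With 2 libraries per stage the crossed value is its mirror image (0.18). One difference shared by many genes can set the sign, so this cannot show whether the numbers pair the libraries. Crossing the numbers, an alternative chosen after seeing the data, gave 3064 calls (1981 higher, 1083 lower). No gene called among the 3190 was called in the opposite direction under any of these alternatives. Of 323 genes eligible to be named that were called, 155 were called under every alternative they had a value for, leaving aside the crossed numbers, which were not run for single genes. The block lost 142 of them, and leaving out 1 library lost 100 (replicate 1 of 2 dpf), 80 (replicate 2 of 2 dpf), 25 (replicate 1 of 4 dpf) or 47 (replicate 2 of 4 dpf). Of genes named above, those lost without replicate 1 of 2 dpf were *apoea*, *apoeb*, *cdkn1a*, *col10a1a*, *cxcr4*, *dla*, *elavl3*, *fetub*, *gata4*, *gata5*, *ggt1*, *hand2*, *hoxb9*, *irf7*, *mcm3*, *mcm7*, *mpeg1.1*, *mpx*, *neurog1*, *rag1*, *rrm1*, *serpinh1b*, *slc17a7a*, *sox10*, *tapbp* and *tecta*. Without replicate 2 of 2 dpf *acana* and *pax5* were lost in addition to some of these. Each of the fits that left out 1 library had the same number of libraries. Without a library of 2 dpf, the spread within a stage came from the 4 dpf pair alone. The cause of these losses was not tested. Depth limits genes near 3 counts, worth up to 0.79 CPM.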
